A study of Homo sapiens with 4 samples.

Results

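The Kruppel-like factors are transcription factors with zinc fingers at the C-terminal end that bind CACCC and GC-rich boxes in promoters and enhancers. This account covers 10 of them in SUM159 cells after SPEN was lowered: KLF2, KLF3, KLF4, KLF5, KLF6, KLF7, KLF9, KLF10, KLF11 and KLF13. They were taken by gene symbol from a table of 23394 genes, and all 10 were found. SUM159 is a mesenchymal-like, triple-negative human breast cancer cell line. The control group was given DMSO, and the knockdown group received doxycycline, which switched on a small interfering RNA against SHARP, an alias of SPEN, a corepressor that works with the Notch effector RBPJ. Both groups were grown in F12 medium with serum, insulin and hydrocortisone, so a glucocorticoid was present in every culture. Each group had 2 RNA-seq libraries from polyadenylated RNA. Only the knockdown cells received doxycycline, so drug and knockdown cannot be told apart, and the sources used here do not say whether the DMSO cells held the inducible construct.

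Members of the family fall into broad types by the region outside the zinc fingers. KLF2, KLF4, KLF5, KLF6 and KLF7 carry acidic or other activating regions and mostly raise transcription. KLF3 binds the corepressor CtBP, and KLF9, KLF10, KLF11 and KLF13 bind the Sin3 histone deacetylase complex. Because family members share their binding sites, the balance between them in a cell is commonly described as mattering as much as the level of any one. Several, among them KLF2, KLF4, KLF6 and KLF10, are also early-response genes whose transcripts are short-lived.

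The family divided in both directions. KLF6, KLF4, KLF7 and KLF3 rose after SPEN knockdown, KLF9, KLF10, KLF5 and KLF13 fell, and KLF2 and KLF11 did not pass the test. The largest change was the rise of KLF6, 1.80-fold, and the largest fall was that of KLF9, to 0.780 times the control level. All 10 passed the low-count filter. By the quasi-likelihood test of edgeR, with an adjusted p under 0.05 as the threshold, 8 of 10 were called, 4 as higher and 4 as lower. Among all 13915 tested genes 50.1% were called, 25.1% higher and 24.9% lower, so a call was common among genes in general. Ignoring sign, the median log2 fold change was 0.27 over the members and 0.22 over all tested genes. Against a fold of at least 1.2, a stricter test that called 18.1% of all tested genes, KLF6, KLF4 and KLF7 were called higher and KLF9 lower.

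Promoter sequence is shown for 4 members with different outcomes: the largest rise (KLF6), the second largest rise (KLF4), the largest fall (KLF9) and the member with the smallest difference (KLF2). Each window runs from 250 bases before to 50 bases after a transcription start, 5′ to 3′ on the gene's strand, from RefSeq on GRCh38.p14, a later build than that of the counts. Capitals mark 4 motifs searched on both strands: the GC box GGGCGG, the CACCC box CACCC, the RBPJ core TGGGAA, and the MEF2 motif as CTA, any 4 bases and TAG.
KLF6, chr10:3785160-3785459, minus strand: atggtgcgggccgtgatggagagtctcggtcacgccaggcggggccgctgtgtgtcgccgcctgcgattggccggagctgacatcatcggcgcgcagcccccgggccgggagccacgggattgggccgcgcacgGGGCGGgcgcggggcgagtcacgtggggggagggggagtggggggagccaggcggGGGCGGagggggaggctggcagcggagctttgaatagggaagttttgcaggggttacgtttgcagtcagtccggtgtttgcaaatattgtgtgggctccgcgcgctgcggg
KLF4, chr9:107489720-107490019, minus strand: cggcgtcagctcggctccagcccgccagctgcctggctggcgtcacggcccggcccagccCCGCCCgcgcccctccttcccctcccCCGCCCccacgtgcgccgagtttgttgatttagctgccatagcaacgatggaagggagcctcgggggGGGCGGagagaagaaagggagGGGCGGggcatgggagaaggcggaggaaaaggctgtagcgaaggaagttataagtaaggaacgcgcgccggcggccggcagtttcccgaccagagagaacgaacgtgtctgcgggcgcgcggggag
KLF9, chr9:70414608-70414907, minus strand: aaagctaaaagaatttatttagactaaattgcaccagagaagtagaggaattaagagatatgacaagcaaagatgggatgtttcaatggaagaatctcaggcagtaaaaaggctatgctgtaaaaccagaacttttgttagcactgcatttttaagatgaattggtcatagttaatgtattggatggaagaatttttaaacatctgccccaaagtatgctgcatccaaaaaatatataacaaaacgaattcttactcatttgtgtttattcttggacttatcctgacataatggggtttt
KLF2, chr19:16324576-16324875, plus strand: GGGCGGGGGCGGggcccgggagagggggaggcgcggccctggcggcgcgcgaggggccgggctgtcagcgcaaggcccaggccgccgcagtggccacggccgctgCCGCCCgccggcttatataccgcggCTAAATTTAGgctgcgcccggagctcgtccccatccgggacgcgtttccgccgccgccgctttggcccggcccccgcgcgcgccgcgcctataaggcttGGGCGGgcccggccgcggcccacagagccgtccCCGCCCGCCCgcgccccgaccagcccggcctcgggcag

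The KLF9 window was rich in A and T, with a GC content of 32.7% against a median of 58.7% over 35116 promoter windows, and it held none of the 4 motifs. The KLF6, KLF4 and KLF2 windows had GC contents of 70.7%, 69.0% and 80.7%. They held 2, 4 and 6 GC boxes (a pair of those in KLF2 overlap), a motif found in 44.95% of all promoter windows. The CACCC box, found in 59.9% of all windows, was in none of these 4 but in at least 1 window each of KLF5, KLF7, KLF11 and KLF13. KLF2 had the MEF2 motif CTAAATTTAG, starting 120 bases before the transcription start, while 2.73% of all windows had a match. A KLF11 window also matched, with G and C in the spacer (CTAGCGGTAG). The RBPJ core was in 1 of the 4 windows of KLF7 and in no other member's window, against 24.0% of all windows. In all, 13 windows of 8 members were searched, and KLF3 and KLF10 had no entry. GC-rich windows occurred among members that rose (KLF6, KLF4), fell (KLF13, 78.3%) and did not pass the test (KLF2).

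The libraries held 15641296 to 17197715 counts, with 17237 to 17308 genes detected in each. SPEN had 187 and 184 CPM (counts scaled to library size with TMM) in the controls and 107 and 108 CPM in the knockdown, 0.582 times the control level (edgeR adjusted p = 1.39e-10). In bulk RNA, fewer cells expressing a gene and less RNA per cell cannot be told apart. Per degree of freedom, the chi-square over genes was 2.06 for the pair of controls, 1.73 for the pair of knockdowns and at least 32.0 across groups. Nothing states that replicates were separate cultures, so p-values rest on how these libraries vary, and that variation may be technical. The mesenchymal line genes VIM, CD44, EGFR and AXL were all expressed, VIM at 3259 and 3254 CPM in the controls. All 4 were called higher after knockdown (log2 fold changes 0.62, 0.15, 0.48 and 0.41), as were 25.1% of all tested genes. CDH1 and GRHL2 had 0 counts in every library, and ESR1 and PGR had at most 3 and 5 counts. The 6 endothelial markers, of interest because KLF2 and KLF4 are high in endothelium, summed to 0.777 to 1.25 CPM per library. The 7 leukocyte markers had a summed level of 36.4 and 40.4 CPM with DMSO and 46.8 and 47.7 CPM after knockdown, mostly from CD68 (29.1 and 33.7 CPM, then 40.7 and 37.4 CPM; edgeR adjusted p = 0.00132, and 0.0703 without control replicate 1), with PTPRC at no more than 0.584 CPM. ITGAM, another of them, had 0 counts in both controls but 10 and 19 counts after knockdown. The part of other cells in the results was not tested.

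**Figure D1:**
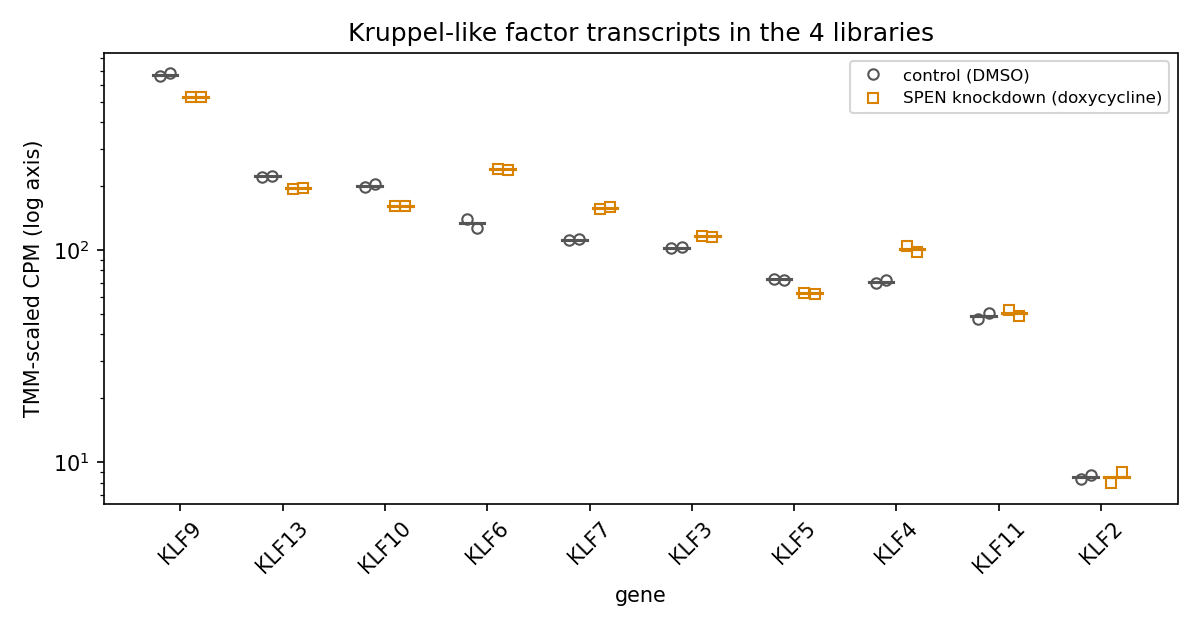
TMM-scaled CPM of the 10 Kruppel-like factors on a log axis, with 1 point per library (circles, control; squares, knockdown) and a bar at the mean of 2. The knockdown points of KLF6, KLF7, KLF3 and KLF4 lie above the control points, those of KLF9, KLF13, KLF10 and KLF5 below, and those of KLF11 and KLF2 overlap them.

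Among the activating members, KLF6, an early-response factor described as a growth suppressor that is induced in tissue injury, had 140 and 127 CPM in the controls and 241 and 238 CPM in the knockdown. Its control libraries were the more spread pair (133 ± 8.72 CPM, SD, n = 2), and both knockdown libraries lay far above them (239.8 ± 2.38 CPM). The rise was 0.85 as a log2 fold change (SE 0.038, edgeR adjusted p = 1.55e-10). It was larger in size than that of 93.4% of the tested genes.

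KLF4, one of the factors used to reprogram somatic cells to pluripotency and an arrest factor in many epithelia, had 69.8 and 72.0 CPM in the controls. In the knockdown it had 104 and 97.9 CPM. The groups did not overlap, and the log2 fold change was 0.51 (SE 0.051, edgeR adjusted p = 9.33e-07). KLF7, a factor of neuronal and adipose development that is close to KLF6 in sequence, rose by nearly the same factor. It had 111 and 113 CPM in the controls and 156 and 160 CPM in the knockdown, a log2 fold change of 0.49 (SE 0.037, edgeR adjusted p = 4.47e-08). The 95% intervals of KLF4 (0.40 to 0.62) and KLF7 (0.42 to 0.57) overlapped, and that of KLF6 (0.77 to 0.93) lay above both.

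KLF5, which drives proliferation of basal epithelial cells and is often set against KLF4, went the other way. It had 73.3 and 71.9 CPM in the controls and 62.7 and 62.2 CPM in the knockdown. Both knockdown libraries were lower than both controls, and the log2 fold change was -0.22 (SE 0.047, edgeR adjusted p = 0.00119). KLF2, the flow-responsive factor of endothelium and of resting T cells, was the lowest member. It had 140 and 152 counts with DMSO and 123 and 138 after knockdown, or 8.35 and 8.72 CPM against 7.96 and 8.95 CPM. These groups overlapped. The log2 fold change of KLF2 was -0.013 with a 95% interval from -0.28 to 0.26 (edgeR adjusted p = 0.945), and a change within that interval was not detectable at this depth.

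KLF3, the CtBP-dependent repressor, had 102 and 103 CPM in the controls and 117 and 115 CPM in the knockdown. The groups did not overlap, but the difference was among the smaller ones called (log2 fold change 0.18, SE 0.042, edgeR adjusted p = 0.0023). In GENCODE, genes on the opposite strand overlap KLF3 (KLF3-AS1), KLF7 (MIR7845) and KLF11 (AC104794.4). The sources used here do not state whether counting used strand, so reads of these partners cannot be told apart. Same-strand genes overlap KLF7 (KLF7-IT1 and MIR2355) and KLF13 (UBE2CP4), and the values of KLF3, KLF7, KLF11 and KLF13 are uncertain to that extent.

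Of the 4 Sin3-binding members, 3 fell and 1 did not pass the test, where 24.9% of all tested genes were called lower. KLF16, a Sin3-type gene outside this set, rose (log2 fold change 0.27), and the activating member KLF5 fell. Whether the types of factor differed was not tested. KLF9, a glucocorticoid- and thyroid hormone-responsive repressor, was the most abundant member in every library. It had 663 and 679 CPM in the controls and 524 and 523 CPM in the knockdown. The knockdown libraries were nearly equal and both below the controls, a log2 fold change of -0.36 (SE 0.021, edgeR adjusted p = 3.21e-09).

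KLF10, known as TIEG1 for its early induction by TGF-beta, had 197 and 204 CPM in the controls and 161 and 161 CPM in the knockdown. Its log2 fold change was -0.32 (SE 0.031, edgeR adjusted p = 7.34e-07), and against a fold of at least 1.2 its adjusted p was 0.0616. KLF11, its closest relative and also induced by TGF-beta, had 47.3 and 50.5 CPM in the controls and 52.3 and 48.9 CPM in the knockdown. Those groups overlapped, with a log2 fold change of 0.048 and a 95% interval from -0.061 to 0.16 (edgeR adjusted p = 0.459). The interval of KLF10 (-0.39 to -0.25) lay wholly below that of KLF11. KLF13, a factor of lymphocytes known for activating CCL5, had 221 and 224 CPM in the controls and 194 and 197 CPM in the knockdown. Both knockdown libraries were lower, by a small margin (log2 fold change -0.18, SE 0.028, edgeR adjusted p = 5.84e-05).

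**Figure D2:**
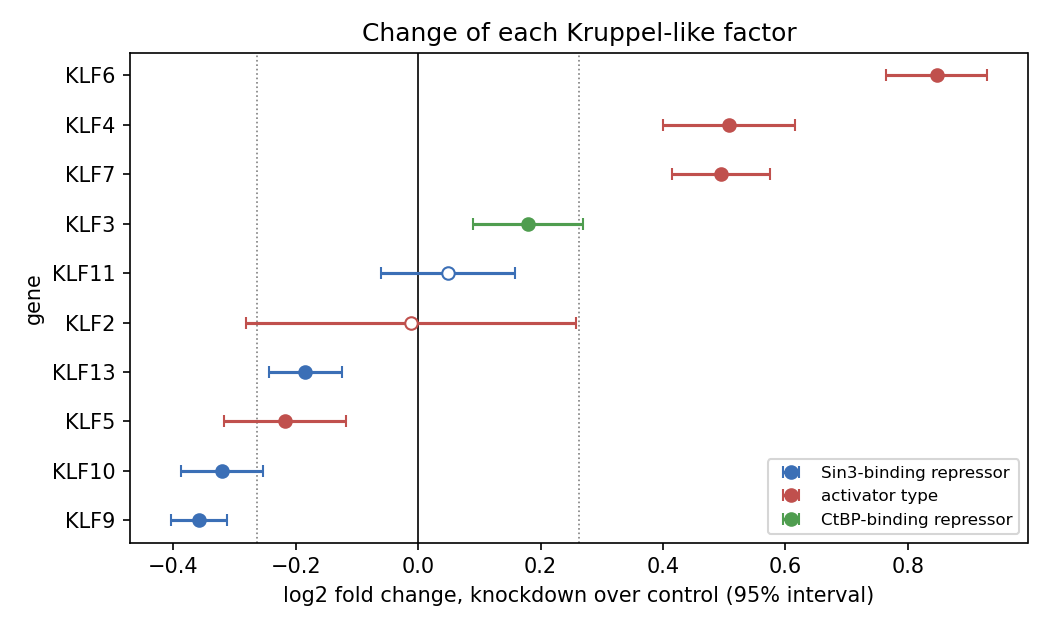
Log2 fold change of each member, knockdown over control, with its 95% interval from edgeR's quasi-likelihood fit (n = 2 libraries per group); colours give the type of factor, filled points are called at an adjusted p under 0.05, and dotted lines mark a fold of 1.2. KLF6 stands highest at 0.85, KLF9 lowest at -0.36, and the Sin3-binding members lie at or below 0.048, as do KLF2 and KLF5.

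For 8 of 10 members the groups did not overlap, as for 74.3% of all tested genes. The deposited values of the 10 members were whole numbers. Leaving out any 1 library kept the same 8 members called, with KLF3 nearest to the threshold (edgeR adjusted p = 0.0407 without control replicate 1).

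Levels of different genes were compared per kilobase of the longest coding transcript in GENCODE 29. In the controls KLF9 led at 130 ± 2.09 CPM per kilobase, followed by KLF10 (54.8), KLF13 (32.6), KLF6 (28.6), KLF4 (25.2), KLF5 (20.4), KLF3 (19.96), KLF7 (13.4), KLF11 (12.1) and KLF2 (4.23). KLF5 (± 0.271) and KLF3 (± 0.136) were separated by less than the sum of their SDs (n = 2 each). In the knockdown KLF6 reached 51.5 ± 0.510 CPM per kilobase and moved from the fourth to the second place, ahead of KLF10 at 43.9 ± 0.0192. KLF4, at 35.9 ± 1.51 CPM per kilobase, passed KLF13 at 28.7 ± 0.233, and KLF5, at 17.5, dropped below KLF3 (22.6) and KLF7 (18.9). With the union of exons as the length, the order in the controls was the same, but KLF10 remained ahead of KLF6 in the knockdown.

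The level summed over the 10 genes hardly moved while its make-up did. It was 339 and 343 CPM per kilobase in the controls and 338 and 335 CPM per kilobase in the knockdown. KLF9 made up 37.8% and 38.2% of that sum with DMSO and 29.9% and 30.2% after knockdown. KLF6 went from 8.84% and 7.96% to 15.3% and 15.3%, and KLF4 from 7.32% and 7.46% to 10.9% and 10.4%.

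Ratios within a library do not depend on how libraries are scaled. The KLF6 to KLF9 ratio of levels per kilobase was 0.234 and 0.208 with DMSO but 0.512 and 0.506 after knockdown. For KLF4 over KLF5 it was 1.21 and 1.27 with DMSO, then 2.10 and 1.995. KLF10 over KLF11 was 4.603 and 4.44 with DMSO, then 3.38 and 3.62. In each of these pairs the knockdown libraries lay outside the range of the controls. These ratios restate the changes of the single genes given above and are not separate evidence.

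**Figure D3:**
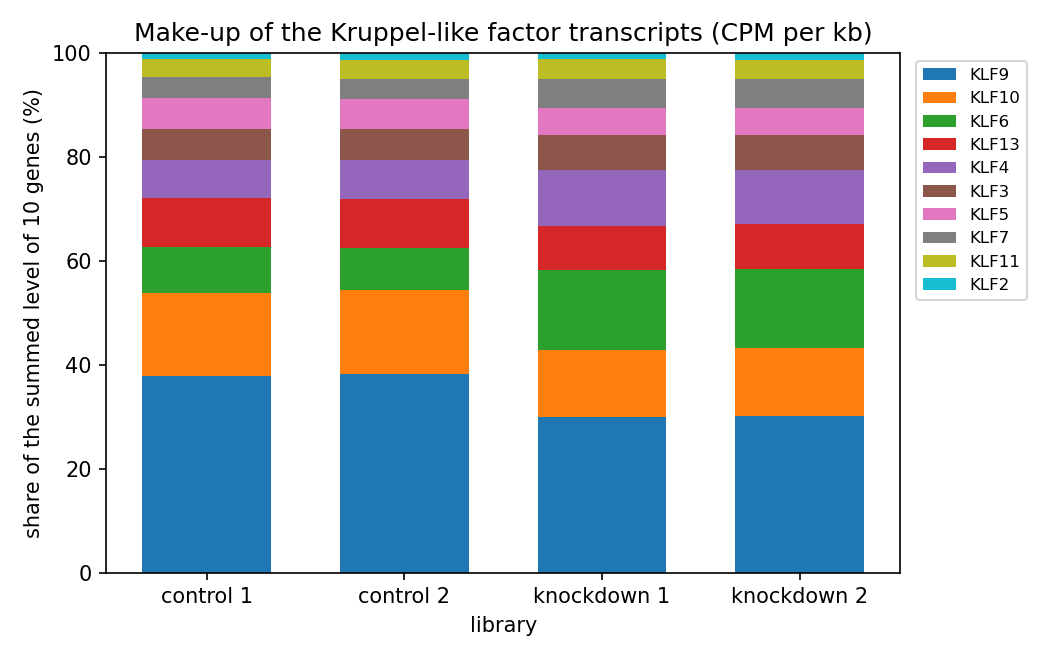
Share of each gene in the summed level (CPM per kilobase, %) of the 10 Kruppel-like factors, 1 bar per library. The KLF9 share is 37.8% and 38.2% with DMSO and 29.9% and 30.2% after knockdown, and the KLF6 share 8.84% and 7.96%, then 15.3% in both.

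Other members of the family also moved in both directions, where 50.1% of all tested genes were called. Of the 7 other KLF genes searched for, 4 passed the low-count filter, of which 2 rose (1 without control replicate 2) and 1 fell. KLF16, a further Sin3-type member, had 77.6 and 77.6 CPM in the controls and 90.5 and 97.3 CPM in the knockdown (log2 fold change 0.27), unlike KLF9, KLF10 and KLF13. KLF12, a CtBP-type repressor like KLF3, rose by 0.26 (edgeR adjusted p = 6.25e-04, and 0.0633 without control replicate 2). KLF15, a glucocorticoid-responsive metabolic regulator, had 27.6 and 28.8 CPM in the controls and 20.9 and 22.9 CPM in the knockdown (log2 fold change -0.36). KLF8, the remaining one, was at 5.07 to 6.82 CPM with overlapping groups and did not pass the test (log2 fold change 0.11, edgeR adjusted p = 0.616). KLF1, KLF14 and KLF17 had at most 3 counts in a library. Against a fold of at least 1.2, 0 of these other KLF genes were called higher and 0 lower.

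The Sp factors, the sister family with like zinc fingers and like GC-box binding, showed fewer calls. Of 7 tested Sp genes 1 was called, SP4 (log2 fold change 0.19, edgeR adjusted p = 0.0129), and without control replicate 1 its adjusted p was 0.21. SP1 and SP3, which are present in most cells, did not pass the test (log2 fold changes 0.056 and -0.050). SP1 was at 230 and 233 CPM in the controls and 238 and 244 CPM in the knockdown. SP5, SP6 and SP8 had 7 to 72 counts per library, where every member but KLF2 had at least 753. SP1 and SP3 were well counted, with at least 3669 and 2326 counts per library. The groups of SP6 (log2 fold change 0.49) and SP8 (0.45) did not overlap, but neither gene passed the test. Among all tested genes 50.1% were called. The difference between the families was not tested.

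Corepressors that the repressing members bind were lower in part. Among all tested genes 24.9% were called lower and 25.1% higher. Of 16 genes of CtBP and the Sin3 complex 9 fell and 2 rose, and their median log2 fold change was -0.12, against 0.0012 over all tested genes. With DESeq2, or without control replicate 2, 5 of them fell, and without control replicate 1 none rose. CTBP2 (-0.19) and CTBP1 (-0.17), the partners of KLF3, both fell. SAP18, a Sin3-associated protein, fell from 81.7 and 80.4 CPM to 54.4 and 61.6 CPM (log2 fold change -0.48, edgeR adjusted p = 5.51e-06). Against a fold of at least 1.2, SAP18 was called lower, the 1 call among the 16 genes. RBBP7, a histone-binding subunit, fell by 0.21 on the log2 scale. SIN3A and SIN3B themselves, which hold the domain that KLF9, KLF10, KLF11 and KLF13 contact, did not pass the test either (log2 fold changes 0.064 and -0.081). Of 4 acetyltransferases that serve as coactivators, CREBBP (-0.29) and KAT2B (-0.56) fell, while EP300 (-0.039) and KAT2A (0.052) did not pass the test.

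Of 10 genes for ubiquitin ligases and a deubiquitinase described to act on KLF proteins, 4 rose and 1 fell. Among all tested genes 50.1% were called, near the share in this list. Against a fold of at least 1.2, 1 gene of the list rose and 0 fell, where 18.1% of all tested genes were called. SMURF2 had 37.2 and 39.9 CPM in the controls and 49.3 and 50.1 CPM in the knockdown (log2 fold change 0.37, edgeR adjusted p = 2.25e-05). SMURF1, a ligase described for KLF2, rose by 0.18, and BAP1, a deubiquitinase that stabilises KLF5, fell by 0.21 on the log2 scale. The edgeR adjusted p of SMURF1 was 0.0537 without control replicate 1, 0.092 without control replicate 2 and 0.111 without knockdown replicate 2. For BAP1 it was 0.0506 and 0.0795 without control replicates 1 and 2. Without those control libraries in turn, 1 and 2 genes of this list rose and 0 fell. WWP1, a ligase of KLF5, had overlapping groups.

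The cascade from MEKK3 through MEK5 and ERK5 to the MEF2 factors is the best known route to KLF2 and KLF4, and the CCM complex restrains it. Of its 11 genes 4 rose and 3 fell, where 50.1% of all tested genes were called. When either control library was left out, 2 rose. MEF2A, a factor that binds the MEF2 motif of the kind in the KLF2 window above, had 114 and 112 CPM in the controls and 68.7 and 66.3 CPM in the knockdown. That was the largest fall of the list, with a log2 fold change of -0.75 (SE 0.047, edgeR adjusted p = 6.90e-09). MEF2D, another MEF2 factor, rose from 105 and 102 CPM to 111 and 121 CPM (log2 fold change 0.16, edgeR adjusted p = 0.0120). MEF2C, at no more than 2.44 CPM, did not pass the test. HEG1, a receptor that anchors the CCM complex, rose from 75.9 and 74.9 CPM to 115 and 119 CPM (log2 fold change 0.64). KRIT1, a CCM subunit, fell by 0.36 on the log2 scale, while PDCD10 rose by 0.18 and CCM2 (-0.014) did not pass the test. MAP3K3, the gene of MEKK3, fell by 0.27, and MAP3K2 rose by 0.16. KLF2 showed no detectable difference, and KLF4 was higher. Whether this cascade acted on KLF2 or KLF4 here was not tested.

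KLF9 is a common target of the glucocorticoid receptor, whose ligand was in the medium of both groups. Of 10 genes of the receptor and its targets 6 rose and 3 fell, where 50.1% of all tested genes were called. TSC22D3, known as GILZ, fell like KLF9, from 500 and 509 CPM to 338 and 339 CPM (log2 fold change -0.58, edgeR adjusted p = 2.82e-11). DUSP1 rose from 202 and 211 CPM to 424 and 427 CPM and ERRFI1 from 104 and 107 CPM to 202 and 196 CPM (log2 fold changes 1.04 and 0.92). The largest rise of the list was that of SGK1, a kinase that regulates ion transport, from 6.14 and 6.36 CPM to 14.5 and 14.99 CPM (log2 fold change 1.24, edgeR adjusted p = 5.00e-07). PER1, a circadian clock gene, rose by 0.37, the receptor gene NR3C1 by 0.29 and ZBTB16 by 0.10. FKBP5 (log2 fold change -0.17) and CRISPLD2 (-0.48) fell like TSC22D3 and KLF9. Of the list, 6 genes, the receptor among them, moved opposite to KLF9 and 3 moved with it. CEBPD did not pass the test. Whether the receptor acted on KLF9 here was not tested.

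Genes described as targets of 1 or more members also divided. Of 22 such genes 18 were tested, of which 7 rose and 4 fell (median log2 fold change 0.11). The largest rises were of endothelial targets of KLF2 and KLF4, in cells where endothelial markers were near 0. S1PR1, a sphingosine 1-phosphate receptor, had 1.61 and 1.32 CPM in the controls and 8.09 and 8.63 CPM in the knockdown (log2 fold change 2.51, edgeR adjusted p = 4.56e-08). THBD, the anticoagulant thrombomodulin, went from 21.4 and 22.02 CPM to 70.1 and 66.6 CPM (log2 fold change 1.65). EDN1, the vasoconstrictor endothelin-1, which KLF2 is described to repress, rose from 11.6 and 12.04 CPM to 34.6 and 35.6 CPM (log2 fold change 1.57). NOS3, also in the list, had at most 2 counts in a library and was not tested. TNFAIP2, described as a target of KLF5 in breast cells, fell (-0.30). In the same list CCND1 (-0.062) and CCNB1 (-0.17) fell, PDGFA rose (0.096) and PTGES (0.45) did not pass the test. FGFBP1 and IGFL1 had 0 counts in every library. CDKN1A, a target of KLF4 and KLF6, did not pass the test (log2 fold change 0.00093). CCL5, a target of KLF13, had 10.7 and 10.1 CPM in the controls and 11.0 and 12.5 CPM in the knockdown, also short of the test. Whether any of these genes responded to a Kruppel-like factor here was not tested.

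**Figure D4:**
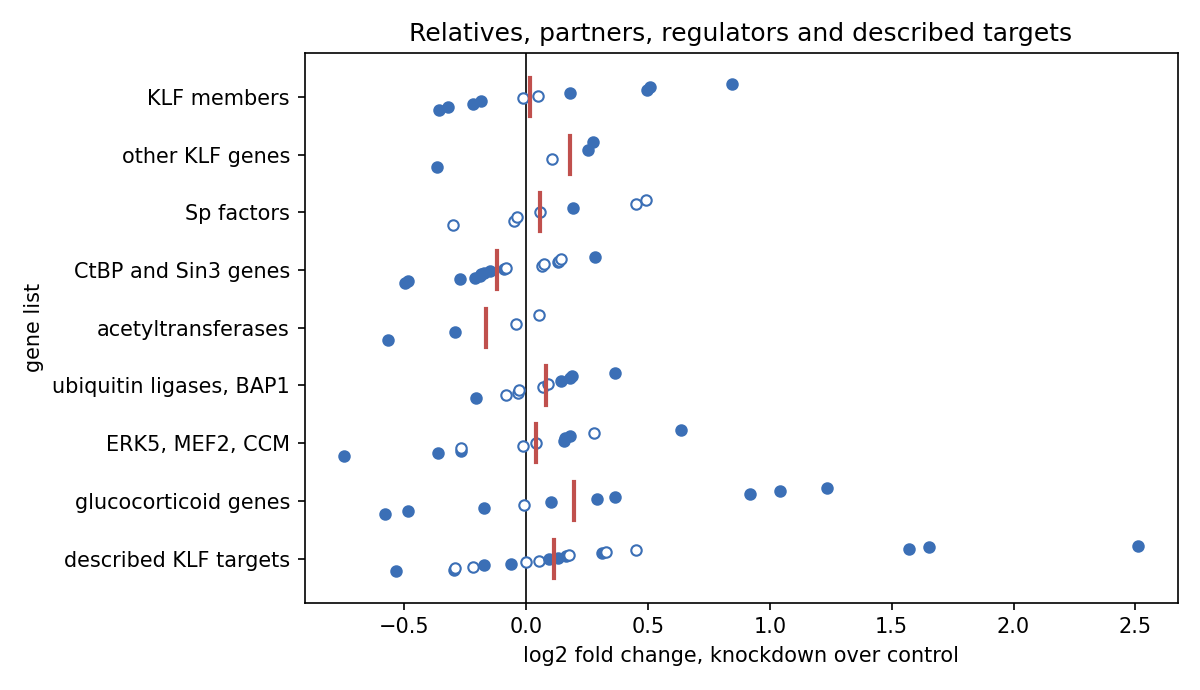
Log2 fold change, knockdown over control, of each tested gene in 9 lists (filled, called at an adjusted p under 0.05; open, not called), with the list's median as a red bar. The medians lie between -0.17 and 0.20, and S1PR1 at 2.51 is the farthest point.

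The tested genes with the pattern most like KLF6, by Euclidean distance of mean-centred log2 CPM over the 4 libraries, were FLJ22447, CPEB2 and NYAP2 (distances of 0.0387, 0.0388 and 0.042). CPEB2 had 22.7 and 21.2 CPM in the controls and 40.6 and 40.1 CPM in the knockdown, and NYAP2 did not pass the test. Nearest to KLF9 were MPND, DAG1 and HMGN2 (0.00574, 0.00577 and 0.00842). DAG1 had 155 and 157 CPM in the controls and 122 and 122 CPM in the knockdown.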

How the data were processed

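RNA-seq values of 4 libraries were used, 2 per group, grouped by their titles. Per gene symbol, the authors deposited unnormalised estimated counts, of which 591 genes had a value over 0.01 away from a whole number. Reads were aligned with STAR to GRCh37, per the submitters' processing notes; how reads were counted, with which annotation and strand setting, is not given here. All 4 sample columns were used (0 left out). Counts were rounded, genes kept by filterByExpr (minimum count 10; 13915 of 18912 genes with a count) and libraries scaled by TMM. Groups were compared with the quasi-likelihood test of edgeR 4.0.16 in R 4.3.3 (group as the single term), with Benjamini-Hochberg adjustment over all tested genes, called at 0.05. SEs are the log2 fold change over the square root of F. The procedure was tested on simulated data, where it recovered 54% of 1.2-fold and 80% of 1.5-fold changes, with 8 of 167 calls false. The simulation gave all genes the same spread and changed few of them, unlike these data. KLF2 had the fewest counts of the members and the largest SE (0.126). How much of each SE was counting error was not worked out.

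Alternatives were other scalings and filters, DESeq2 1.42.0, limma-voom (limma 3.58.1), a replicate block, leaving out each library, an adjusted p under 0.01 and glmTreat at a fold of 1.2. Named were all members, SPEN, up to 3 called genes per list with the smallest adjusted p, and the 3 genes nearest in pattern to the largest rise and the largest fall (0.01 CPM added before log2). Other genes were named after their values were seen. The members and lists were chosen with earlier results of these data known. Lists are described by counts and medians, with no set test. Transcript lengths came from GENCODE 29 and promoters from RefSeq, both on GRCh38, so gene coordinates are given for the promoter windows alone.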

Additional observations from a re-analysis of the deposited data

How the results depend on the processing

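The same 8 Kruppel-like factors were called, in the same directions, with RLE, upper-quartile or library-size scaling, with either other low-count filter, with DESeq2 or limma-voom, at an adjusted p under 0.01 and without any 1 library. The test against a fold of at least 1.2 called 4 members, 1 of them lower, and 2521 genes in all, 1216 higher and 1305 lower; it asks for a larger change by construction. DESeq2 called 4593 genes, 2159 of them lower, where edgeR called 6970 and 3471; the cause was not tested. Leaving out 1 library gave 5047 to 6342 called genes. Both members that were not called changed sign: the log2 fold change of KLF2 ranged from -0.098 to 0.068 over the single libraries left out (0.016 without control replicate 2, 0.068 without knockdown replicate 1), and that of KLF11 from -0.0033 (without knockdown replicate 1) to 0.099. Library-size scaling moved the median log2 fold change of all tested genes to -0.044 and the calls to 2966 higher and 4101 lower, against 3499 and 3471. The low counts of KLF2 limit its precision.

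The replicate numbers are shared by the groups, but nothing states that they pair the samples, and the correlation of deviations of same-numbered libraries was 0.191 over 2 pairs. With the replicate block, 8 members (4 higher, 4 lower) and 7211 genes were called.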
